A study of Homo sapiens with 24 samples.

Results

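A549 is a human lung adenocarcinoma line, and the data described here are its gene counts in 21% oxygen (normoxia) set against those of HCT116 (colorectal), PC3 (prostate) and T47D (breast) cells in the same oxygen. All libraries labelled Nx were taken, which are 12 of the 24 in the series: 3 of A549 (A549_Nx), and 3 each of HCT116 (HCT116_Nx), PC3 (PC3_Nx) and T47D (T47D_Nx), 9 in all, with all 23106 genes of the files. The other 12 libraries came from the same lines after 16 h in 0.5% oxygen (hypoxia) and were used to repeat the comparison, to compare the A549 difference between oxygen states, and in an alternative fit of all 24 libraries. No group carried a treatment or an engineered allele. Each line is a single established culture, so the comparison describes 1 line and not lung cancer as a class. A549 and PC3 cells were grown in F12K medium, HCT116 in McCoy's 5a and T47D in DMEM, all with 10% serum. Line and medium therefore cannot be told apart for HCT116 and T47D, and PC3 is the comparison in the same medium. The labels give the replicates as triplicates without saying that they were separate cultures, so p values measure the spread between these libraries.

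A549 cells are widely used as a model of alveolar type II cells. As background, they are known to have lost KEAP1, STK11, SMARCA4 and CDKN2A function. KEAP1 is the adaptor that sends the transcription factor NRF2 (gene NFE2L2) for destruction, and NRF2 together with a small MAF protein switches on enzymes of glutathione, NADPH and quinone metabolism through antioxidant response elements. CDKN2A encodes inhibitors of the cell cycle, SMARCA4 is a motor subunit of the SWI/SNF chromatin remodelling complex, and STK11 encodes LKB1, a kinase upstream of the salt-inducible kinases.

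Library totals ranged from 22698584 to 61798736 counts, and the 3 A549 libraries held 51650509, 55734790 and 57448885. A count of 3, taken as the floor of a library, was worth 0.0454 to 0.13 CPM (counts scaled to library size with TMM factors). This floor covers counting error only. On the log2 scale, the A549 libraries correlated with each other at 0.994 to 0.996 across tested genes, and with the other lines at a mean of 0.834 (HCT116), 0.845 (PC3) and 0.77 (T47D). Genes share libraries and are not independent replicates, so these values are a description.

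The label of a lung line was checked against cell type markers. Of 13 alveolar type II genes, 3 reached 1 CPM in A549, and 5 had no count in any A549 library (NKX2-1, PGC, SFTPA1, SFTPA2 and SLC34A2). SFTPB averaged 0.0251 CPM, SFTPC 0.0442 CPM and SFTPD 0.101 CPM, which are at or near the floor. The summed level of the 13 genes was 195, 213 and 246 CPM in the A549 libraries, against means of 175 (HCT116), 284 (PC3) and 268 (T47D). Its most abundant gene in A549 was LPCAT1, a phospholipid enzyme of many cell types, at 116 CPM. ABCA3 and ETV5 also reached 1 CPM there. ABCA3 was not called (log2 difference 0.36), and it averaged 169 CPM in T47D. Of the 7 members tested, 1 was higher (ETV5) and 1 lower (LAMP3) than the mean of the other lines. LAMP3 passed the filter on low counts only through the other lines, and of the 3 members that passed it in A549 none was lower. The count higher was 2 without A549 replicate 1, HCT116 replicate 3, PC3 replicate 2 or T47D replicate 3. The surfactant genes and NKX2-1, the regulator of lung identity, were thus absent or close to the floor in the line labelled lung. Of 11 airway genes, 6 reached 1 CPM, led by AGR2 at 75.4 CPM, while SCGB1A1 and SCGB3A2 had no count. AGR2 did not mark the lung line, since it averaged 1310 CPM in T47D and 54 CPM in PC3. It had no count in HCT116, and its log2 difference turned from 3.74 to -1.82 without HCT116 in the mean. The airway sum was 131, 79.9 and 65.7 CPM in A549, against means of 10.6 (HCT116), 106 (PC3) and 1520 (T47D).

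Markers of cells that do not belong in the culture were low. Of 10 leukocyte genes, 6 had no count in A549, among them CD2, CD3E, MS4A1, PTPRC and TYROBP, and the summed level was 27.4, 32.1 and 37.9 CPM, most of it CD68 at 27.0 CPM. Of 7 endothelial genes, none reached 1 CPM, and their sum was 0.272 ± 0.105 CPM (SD, n = 3), led by CDH5 at 0.202 CPM, with ERG and KDR at 0. Of 8 fibroblast genes, only COL1A1 did, at 13.9 CPM of a sum of 15.8 ± 3.47 (SD, n = 3), with DCN and POSTN at 0.

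A549 differed from the other lines at most genes tested. Against the mean of the other 3 lines (edgeR's quasi-likelihood test, called at a fold change over 1.2 and an adjusted p under 0.05), 5261 of 15616 tested genes were higher (33.7%) and 4177 lower (26.7%). A mean can be set by 1 line, so a stricter call asked for an adjusted p under 0.05 with more than a 2-fold change against HCT116, PC3 and T47D separately. By this call 1157 genes were higher than each other line (7.41%) and 745 lower than each (4.77%). All 3 A549 libraries lay above all 9 others for 2288 genes (14.7%) and below them for 1500 (9.61%). Against PC3 alone, at a fold change over 2, 3184 genes were higher (20.4%) and 2871 lower (18.4%). The member counts of the gene lists are given beside these shares. The lists were chosen with earlier results of these data known, so their counts are a description and not independent evidence. The median log2 difference of all genes tested was 0.02. Of the genes tested, 455 passed the filter on low counts only through A549, which favours a call of higher. Of these 420 were higher than the mean and 333 higher than each line. Among the 15161 that passed it in the other lines, 31.9% were higher than the mean and 5.43% higher than each line. List members that passed only through A549 are given beside their counts. A further 2236 genes passed only through the other lines, which favours a call of lower. Among the 13380 that passed it in A549, 3410 (25.5%) were lower than the mean and 422 lower than each line.

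NRF2 target genes were higher in A549 almost throughout. Of 49 targets in 6 functional lists, 47 passed the filter on low counts, 45 were higher than the mean of the other lines and none lower. The remaining 2 were GSS and CBR3, and UGT1A1 and ADH7 were below the filter. AKR1C4, NR0B1 and UGT1A6 passed it only through A549, and of the other 44 targets 42 were higher than the mean and 29 higher than each line. Compared with each line separately, 32 of the 47 were higher than all of them and none was lower than all, and for 41 all 3 A549 libraries lay above all 9 others. The median log2 difference was 3.18, or 3.17 with levels under 3 counts set at 3 counts. Against PC3, in the same medium, 40 of 47 were more than 2-fold higher and 1 (CBR3) lower. The summed level of the 49 genes was 50100, 45700 and 47400 CPM in the A549 libraries, against means of 8870 ± 728 in HCT116, 11700 ± 183 in PC3 and 5060 ± 702 in T47D (SD, n = 3).

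**Figure D1:**
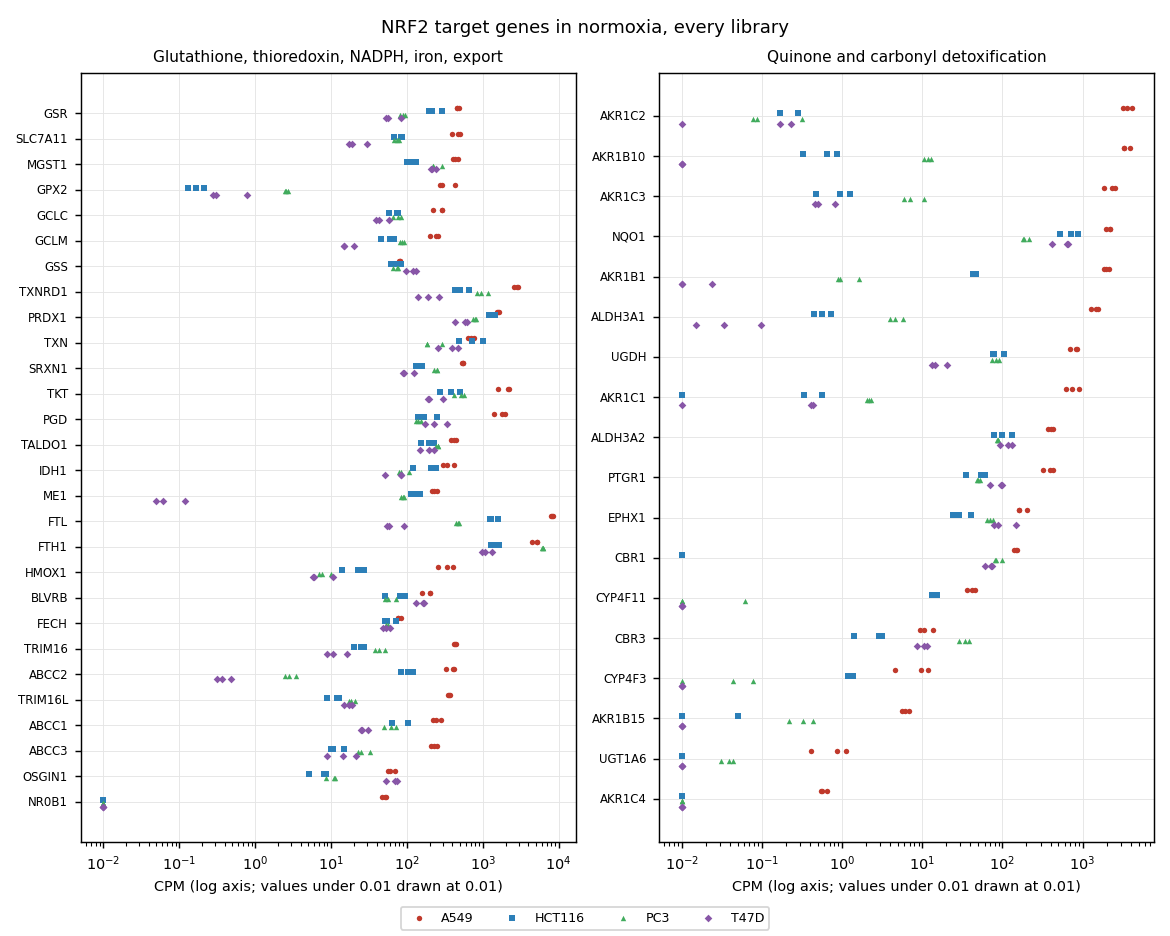
Levels of 46 of the 47 tested NRF2 targets in every normoxic library, in CPM on a log axis, with 1 row per gene and 1 point per library (circles A549, squares HCT116, triangles PC3, diamonds T47D). The A549 points lie right of all others for 40 of these genes; GSS, CBR3, FTH1 and OSGIN1 are among the exceptions.

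The regulators themselves differed less. NFE2L2 read 119, 107 and 117 CPM in A549, 97.1, 73.9 and 105 in HCT116, 74.1, 81.7 and 65.6 in PC3, and 48.4, 46.9 and 61.8 in T47D. The A549 values lay above all others, with a log2 difference of 0.69 ± 0.13 (SE; adjusted p = 2.67e-04). KEAP1 transcripts, at 133 ± 8.75 CPM (SD, n = 3), did not pass the test (log2 difference 0.28 ± 0.18, adjusted p = 0.209). Of the 9 regulators 5 were higher and 1 (RBX1) lower. The count lower was 0 without A549 replicate 3 and 2 without T47D replicate 2. The small MAF partners MAFG and MAFK were higher by 1.30 ± 0.13 and 1.38 ± 0.18, and MAFF was not called. SQSTM1, which binds KEAP1 and is itself an NRF2 target, was the 1 regulator higher than each line, at 1280, 1350 and 1560 CPM and 5.95 times the highest other line (log2 difference 2.60 ± 0.16).

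To show the sequence through which NRF2 is known to act, promoter windows of 300 bases (250 before and 50 after a start, RefSeq, GRCh38.p14 table) were searched for the core of the antioxidant response element, TGACNNNGC, on both strands. Of the 49 targets, 35 had a window under their symbol and 12 of these (34.3%) held a match, against 4384 of 27305 genes (16.1%). The motif is short, a match is a description and not a binding site, and elements outside the window were not searched. The 3 targets with a match that were higher than each other line and had the highest A549 level per kilobase are shown, with matches in capitals. Their positions were found by matching the sequence to GRCh37. PGD lies at chr1:10458871-10459170 (plus strand), TXNRD1 at chr12:104609307-104609606 (plus strand) and GPX2 at chr14:65409414-65409713 (minus strand), and all read from 5′ to 3′.
PGD: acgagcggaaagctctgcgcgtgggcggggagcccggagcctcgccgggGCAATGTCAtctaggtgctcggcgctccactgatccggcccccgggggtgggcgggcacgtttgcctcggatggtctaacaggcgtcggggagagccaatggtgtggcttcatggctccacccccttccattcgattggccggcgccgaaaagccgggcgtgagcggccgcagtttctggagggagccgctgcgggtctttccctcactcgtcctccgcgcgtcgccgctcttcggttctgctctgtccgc
TXNRD1: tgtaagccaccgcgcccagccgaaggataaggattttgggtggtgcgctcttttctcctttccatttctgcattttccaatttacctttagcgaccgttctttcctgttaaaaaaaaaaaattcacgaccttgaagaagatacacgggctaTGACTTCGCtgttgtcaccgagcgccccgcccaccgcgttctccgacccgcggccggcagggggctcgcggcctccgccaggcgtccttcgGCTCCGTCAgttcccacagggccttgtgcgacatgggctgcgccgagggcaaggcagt
GPX2: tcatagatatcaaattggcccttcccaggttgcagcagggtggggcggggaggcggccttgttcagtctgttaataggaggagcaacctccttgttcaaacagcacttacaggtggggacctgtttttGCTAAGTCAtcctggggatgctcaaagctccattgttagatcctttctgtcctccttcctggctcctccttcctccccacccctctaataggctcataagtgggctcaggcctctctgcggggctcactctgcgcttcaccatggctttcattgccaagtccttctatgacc

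Glutathione genes: 6 of 7 were higher. GCLC and GCLM, the subunits of the rate-limiting ligase, were higher by 2.10 ± 0.14 and 2.43 ± 0.13 on the log2 scale, and SLC7A11, the cystine importer, by 3.17 ± 0.14. GCLM read 258, 204 and 246 CPM in A549 against a highest other library of 91.8 CPM in PC3. GPX2, a glutathione peroxidase of gut epithelium, read 438, 287 and 271 CPM in A549. In HCT116 it read 0.131, 0.21 and 0.167 CPM, in PC3 2.72, 2.56 and 2.52, and in T47D 0.776, 0.303 and 0.282. It was 128 times the PC3 mean (log2 difference 9.18 ± 0.21, adjusted p = 5.98e-15). GSS, the second enzyme of the pathway, did not pass (80.9 ± 1.84 CPM, log2 difference -0.06 ± 0.13).

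All 4 thioredoxin genes were higher, and 2 of them, TXNRD1 and SRXN1, were higher than each line. TXNRD1, thioredoxin reductase, read 2790, 2590 and 2910 CPM in A549 and 942, 1160 and 830 in PC3, the next line. TXN and PRDX1, the thioredoxin and a peroxiredoxin, differed by 0.83 ± 0.21 and 0.92 ± 0.14.

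All 6 genes of NADPH supply were higher. PGD, a dehydrogenase of the pentose phosphate pathway, read 1940, 1390 and 1780 CPM in A549. In HCT116 it read 168, 142 and 249 CPM, in PC3 142, 154 and 132, and in T47D 225, 172 and 343. The groups did not overlap, and A549 was 6.88 times the T47D mean (log2 difference 3.18 ± 0.19 against the mean of the lines, adjusted p = 2.98e-10). TKT, transketolase, was higher than each line too, by 2.50 ± 0.18. ME1, malic enzyme, had a mean of 230 CPM against 132 in HCT116 and 0.0772 in T47D, and its log2 difference against the mean of the lines was 4.59 ± 0.13.

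The quinone and carbonyl detoxification enzymes held the largest differences, with 17 of 18 tested members higher and 15 higher than each line. Of these, AKR1C4 and UGT1A6 passed the filter only through A549, and without them 15 of 16 were higher and 13 higher than each line. The aldo-keto reductases AKR1C2 (3660 CPM), AKR1B10 (3470 CPM), AKR1C3 (2260 CPM) and AKR1B1 (1990 CPM) were among the abundant transcripts of A549. AKR1C2 did not exceed 0.312 CPM in any of the other 9 libraries. AKR1B10 read 13, 11.9 and 10.5 CPM in PC3 and had no count in T47D. AKR1B1 averaged 44.8 CPM in HCT116 and 1.17 CPM in PC3. The AKR1C genes are near-identical copies, and fragments without a unique position were removed before counting, so their single values are uncertain. NQO1, the classical NRF2 reporter enzyme, read 2220, 2210 and 1960 CPM and was 3.01 times the HCT116 mean (log2 difference 2.31 ± 0.16). ALDH3A1, an aldehyde dehydrogenase of cornea and airway, read 1580, 1480 and 1260 CPM and was 302 times the PC3 mean. CBR1, carbonyl reductase, had no count in HCT116, and against PC3 its log2 difference was 0.74 ± 0.15. CBR3 was lower than in PC3 (11.2 against 33.8 CPM).

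All 5 iron and heme genes and all 7 export and feedback genes were higher, of which NR0B1 passed the filter only through A549. FTL, ferritin light chain, read 7920, 8170 and 8540 CPM and was 5.95 times the HCT116 mean, while FTH1, the heavy chain, was higher than in HCT116 and T47D but did not pass the test against PC3 (4977 against 6140 CPM, log2 difference -0.30 ± 0.20, adjusted p = 0.209). HMOX1, heme oxygenase, read 409, 256 and 343 CPM against a highest other value of 27.1 CPM in HCT116 (log2 difference 4.94 ± 0.20). NR0B1, an orphan nuclear receptor, had 53.9, 51.5 and 47.7 CPM in A549 and no count in any of the other 9 libraries, which makes it at least 545-fold higher than each line at the floor of 3 counts per library, averaged within the line (PC3 has the highest floor). ABCC2, an exporter of glutathione conjugates, read 408, 413 and 327 CPM and was 3.69 times the HCT116 mean. TRIM16 and its paralog TRIM16L were higher by 4.21 ± 0.15 and 4.55 ± 0.12. OSGIN1 was higher than the mean but not than T47D (62.1 against 65.6 CPM).

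Epithelial junction genes and their regulators were lower in A549. Of 20 genes, all tested, 18 were lower than the mean of the other lines and 1 (SPINT2) higher, and 15 were lower than each line. Of the 20, 10 passed the filter only through the other lines. Of the 10 that passed it in A549, 8 were lower than the mean (25.5% of all such genes were). Of the same 10, 5 were lower than each line, against 422 of all 13380 such genes. For 17, all 3 A549 libraries lay below all 9 others. The median log2 difference was -8.18, or -6.96 with levels under 3 counts set at 3 counts. Among the 10 genes that passed the filter in A549 the fitted median was -3.28. Against PC3 18 of 20 were more than 2-fold lower and none higher. Grainyhead factor GRHL2 had no count in A549. It read 12.3, 10.2 and 13.7 CPM in HCT116, 87.5, 89.9 and 74.3 in PC3, and 195, 213 and 187 in T47D, so it was at least 208-fold lower than in the lowest other line. OVOL1 and OVOL2, repressors of mesenchymal genes, had no count either. ESRP1, an epithelial splicing factor, had 3 counts in all in A549, against 117 CPM in HCT116, 256 CPM in PC3 and 196 CPM in T47D, and was 6060-fold lower than in HCT116 (95% counting interval 2070 to 29400). Its paralog ESRP2 averaged 0.0934 CPM. EPCAM read 5.85, 4.16 and 2.54 CPM against a lowest other library of 131 CPM in T47D (log2 difference -6.11 ± 0.29, adjusted p = 2.06e-11). CLDN7, a tight junction claudin, averaged 0.659 ± 0.464 CPM against 109 CPM or more in every other line.

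CDH1, E-cadherin, did not vanish. It read 17.4, 8.94 and 12.2 CPM in A549, 22.2, 21.9 and 26.9 in HCT116, 223, 239 and 164 in PC3, and 418, 349 and 679 in T47D (log2 difference -3.38 ± 0.27). A549 was below all others but within 2-fold of HCT116, and so was not among the 15. JUP, plakoglobin, did not pass (log2 difference 0.13 ± 0.19), and DSP, desmoplakin, averaged 68.8 ± 18.7 CPM (log2 difference -1.52 ± 0.25). SPINT2, a protease inhibitor, was higher by 0.52 ± 0.16, while its relative SPINT1 averaged 0.445 CPM.

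Mesenchymal genes went the other way. Of 18 genes, all tested, 16 were higher than the mean of the other lines and 1 (TWIST1) lower, and 11 were higher than each line. The median log2 difference was 6.91, or 6.16 with levels under 3 counts set at 3 counts. MMP2 and TWIST2 passed the filter only through A549. Of the other 16 genes 14 were higher than the mean and 9 higher than each line. Their median was 5.72, or 5.39 with levels under 3 counts set at 3 counts. PC3 shares much of this pattern. Against PC3 alone, in the same medium, the fitted median was 1.92, while those of the NRF2 targets and epithelial genes were 2.94 and -8.32. Against PC3 11 of 18 were more than 2-fold higher, and TWIST1 and SNAI2 were lower. SNAI2 was among the genes higher than the mean, at 1.07 CPM against 0.176 in HCT116, 11.9 in PC3 and 0.0384 in T47D, and its log2 difference turned from 1.25 to -0.44 without T47D in the mean. TWIST1 averaged 1.51 CPM in A549 and 11.1 in PC3, and its call rested on that line. It was also lost without A549 replicate 1 or 2, HCT116 replicate 2 or 3, PC3 replicate 2 or 3, or T47D replicate 1. VIM, vimentin, read 1140, 1170 and 1600 CPM in A549 and 328, 379 and 303 in PC3. It was under 6 CPM in every HCT116 and T47D library. ZEB1, a repressor of epithelial genes, read 39.1, 41.1 and 35.2 CPM, and was 5.13 times the PC3 mean (log2 difference 4.45 ± 0.20, adjusted p = 1.08e-11). ZEB2 read 7.47, 7.99 and 9.42 CPM with no other library above 0.592. TGFBI, a matrix protein induced by TGF-beta, read 1230, 1350 and 1500 CPM, 300 times the PC3 mean. TWIST2 averaged 8.90 ± 1.64 CPM and had no count elsewhere. CDH2, N-cadherin, was lower in A549 (51.7 CPM) than in PC3 (94.2 CPM), and the HCT116 and T47D levels were near the floor. LOX did not pass (log2 difference -0.16 ± 0.38). The fibroblast genes given above were low in the same libraries, and their part in these levels was not tested.

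**Figure D2:**
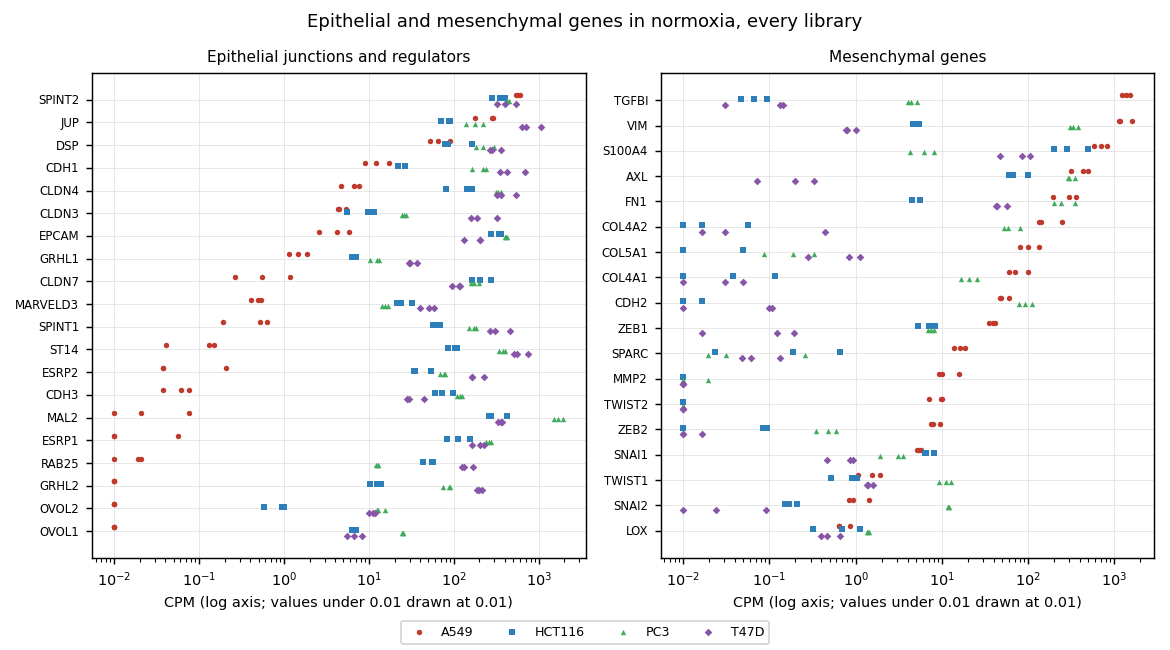
Levels of 20 epithelial (left) and 18 mesenchymal (right) genes in every normoxic library, in CPM on a log axis, with 1 row per gene and 1 point per library. The A549 circles lie left of all other points for 17 epithelial genes and right of them for 11 mesenchymal genes.

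The E-box CAGGTG, which ZEB1 is known to bind, was searched in the same promoter windows on both strands. The motifs can overlap, since CAGGTG ends in the TG with which TGACNNNGC begins. Of the 20 epithelial genes, 8 had a window and 6 of these held a match, against 6571 of 27305 genes (24.1%). With 8 windows this is a description of those genes only. The 2 genes with most matches among those lower than each line are shown, with matches in capitals. CLDN7 lies at chr17:7165748-7166047 (GRCh37, minus strand) with 5 matches, and RAB25, a small GTPase of apical transport, at chr1:156030701-156031000 (plus strand) with 2.
CLDN7: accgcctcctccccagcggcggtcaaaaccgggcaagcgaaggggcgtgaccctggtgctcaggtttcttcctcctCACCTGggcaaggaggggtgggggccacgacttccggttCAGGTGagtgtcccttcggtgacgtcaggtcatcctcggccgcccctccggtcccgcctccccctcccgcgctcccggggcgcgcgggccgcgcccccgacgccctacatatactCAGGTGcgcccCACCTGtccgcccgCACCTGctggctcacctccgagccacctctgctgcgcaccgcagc
RAB25: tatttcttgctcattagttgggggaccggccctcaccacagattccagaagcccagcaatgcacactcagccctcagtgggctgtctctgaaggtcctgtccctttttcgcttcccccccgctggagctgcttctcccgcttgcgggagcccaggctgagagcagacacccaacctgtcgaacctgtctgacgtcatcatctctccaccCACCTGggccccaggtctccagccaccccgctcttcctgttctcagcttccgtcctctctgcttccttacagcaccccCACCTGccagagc

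Endoderm transcription factors were mixed. Of 14 tested, 10 were higher and 4 lower (FOXA1, GATA6, SOX9 and ONECUT2), and 7 were higher than each line. HNF4A, a regulator of liver and gut identity, read 43.5, 31.9 and 40.6 CPM in A549 and 4.88, 3.52 and 5.31 in HCT116, and was at or near 0 in PC3 and T47D (log2 difference 9.54 ± 0.27). FOXA2 read 41.3, 37.9 and 51.4 CPM and was 4.42 times the PC3 mean, while FOXA1 averaged 14.8 CPM against 1.29 in HCT116, 92.4 in PC3 and 285 in T47D. Without T47D in the mean, its log2 difference turned from -1.15 to 0.42. NR5A2, GATA4 and SOX17 were among the others higher than each line. GATA4 (3.09 CPM) and SOX17 (1.70 CPM) were low in absolute terms, and SOX17 passed the filter only through A549.

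Plasma protein genes that liver is known for were detected in A549 in greater number than in the other lines, but their total was highest in T47D. Of 28 genes, 13 reached 1 CPM in A549, against 2 in HCT116, 5 in PC3 and 6 in T47D. Their summed level was 287, 191 and 187 CPM in A549, against 22.5 ± 9.28 in HCT116, 127 ± 14.4 in PC3 and 312 ± 75.4 in T47D (SD, n = 3), and the A549 and T47D libraries overlapped. Of the 18 tested, 10 passed the filter only through A549, among them FGA, FGB, FGG, AMBP and VTN. Of the other 8, 5 were higher and 2 (SERPINA1 and F10) lower than the mean of the lines. Of these 8, 1 (C5) was higher than each line. SERPINA1 and F10 passed the filter only through the other lines, and none of the 15 genes that passed it in A549 was lower. The F10 call was lost without A549 replicate 1 or 3 or PC3 replicate 2. C5, a complement component, led at 108, 73.1 and 76.8 CPM and was 8.92 times the T47D mean. FGA, the fibrinogen alpha chain, read 21.6, 12.1 and 11.4 CPM and had no count in the other 9 libraries, and FGB and FGG averaged 6.46 and 6.85 CPM. The line was not liver-like throughout, since ALB, APOB, HP and C4A had no count in A549. SERPINA1, alpha-1 antitrypsin, averaged 0.0995 CPM against 164 in T47D.

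Transcripts of the CDKN2A locus were missing or low in A549. CDKN2A (chromosome 9, 21967751 to 21995300, GRCh37) had no count in any A549 library, and read 57.5, 82.2 and 74.5 CPM in HCT116, 55.6, 52.7 and 70.5 in PC3, and 53.8, 48.1 and 48.8 in T47D. It was at least 866-fold lower than in T47D, the lowest other line. CDKN2B, the neighbouring inhibitor (22002902 to 22009304), had no count either, against 5.01 CPM in HCT116, 15.4 in PC3 and 10.4 in T47D. MTAP, a methionine salvage enzyme on the other side (21802635 to 21937650), was not at 0. It read 7.84, 7.43 and 7.42 CPM in A549, against 249 ± 36.6 CPM in HCT116, 74.9 ± 12.9 in PC3 and 29.6 ± 2.65 in T47D (SD, n = 3; log2 difference -3.44 ± 0.17, adjusted p = 2.58e-11). These 3 genes were the only ones of the 10 tested 9p21 genes that were lower than each line. Of the others 6 were higher than the mean, and of these only MLLT3 was higher than each line (36.9 CPM, log2 difference 2.32 ± 0.17). DMRTA1 averaged 3.14 CPM in A549 and 3.41 in PC3, with 0.0211 in HCT116 and no count in T47D. PTPLAD2 averaged 4.18 CPM in A549 and 8.17 in T47D, with 0.0243 in HCT116 and no count in PC3. KLHL9 (67.9 CPM) and FOCAD (84.4 CPM) were the others with a level above 10 CPM. CDKN2A and CDKN2B passed the filter only through the other lines. DNA was not measured in these libraries.

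**Figure D3:**
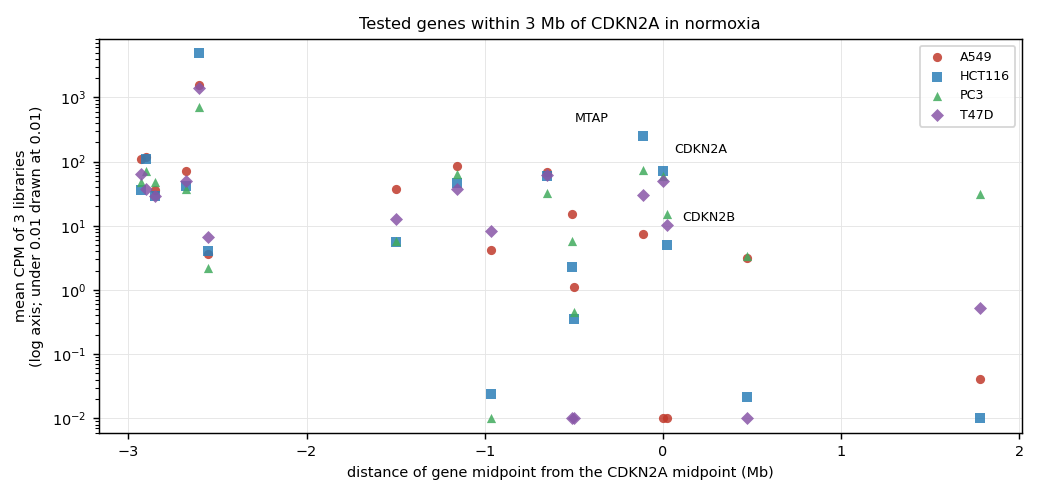
Mean CPM (log axis) of the tested genes within 3 Mb of CDKN2A, against the distance of each gene's midpoint from that of CDKN2A in Mb, with 1 point per line (mean of 3 libraries). The A549 circles are at the bottom at CDKN2A and CDKN2B and reduced at MTAP (7.56 CPM), and lie among or above the other lines at most genes farther out.

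SMARCA4 was the 1 of 21 tested SWI/SNF subunits lower than each line. It read 10.4, 13.4 and 8.8 CPM in A549 (chromosome 19, 11071608 to 11190102, GRCh37), 107, 65.5 and 65.2 in HCT116, 292, 370 and 235 in PC3, and 112, 138 and 149 in T47D (log2 difference -3.75 ± 0.24, adjusted p = 7.53e-10). The alternative motor SMARCA2 averaged 41.1 CPM, close to T47D (42.5) and above HCT116 (6.11). In all 5 subunits were higher and 6 lower, and their median was -0.04.

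STK11 itself did not pass (46.3 ± 4.35 CPM, log2 difference -0.21 ± 0.13), and 3 of the 12 genes of LKB1 and CREB signalling were higher and 1 lower. The kinase SIK1, which is also a CREB target, stood apart at 250, 252 and 287 CPM, 4.87 times the PC3 mean. The 10 CREB targets summed to 383 ± 34.3 CPM in A549, against 260 ± 28.3 in HCT116, 32.1 ± 1.71 in PC3 and 11.1 ± 3.14 in T47D (SD, n = 3). Of the 8 tested, LINC00473 and INSL4 passed the filter only through A549. Of the other 6, 5 were higher than the mean and 3 higher than each line. Against HCT116, 5 of the 8 were more than 2-fold higher and 2 lower. The most abundant member was PDE4D in A549 (246 CPM) and PDE4B in HCT116 (214 CPM), so each of these sums is mostly 1 gene. PDE4D, a cyclic AMP phosphodiesterase, read 250, 235 and 252 CPM, 97.7 times the PC3 mean (log2 difference 8.15 ± 0.18). The long noncoding RNA LINC00473 read 20.3, 12.2 and 14 CPM with no count elsewhere, and INSL4 24.6, 14.7 and 8.4 CPM with at most 0.125 elsewhere. NR4A2 was not called, and PPARGC1A and PCK1, both below the filter, had no count in A549.

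The oxygen-sensing genes differed already in normoxia. EPAS1, which encodes HIF-2 alpha, read 278, 233 and 334 CPM in A549 and 184, 213 and 134 in PC3, with 13.9 CPM in HCT116 and 45.9 in T47D (log2 difference 2.54 ± 0.18). HIF1A averaged 389 ± 39.9 CPM, above HCT116 (161) and T47D (135), and did not pass the test against PC3 (470 CPM). ARNT2, a partner subunit, was 9.55 times the HCT116 mean. EGLN1 and EGLN3, the hydroxylases that mark HIF alpha for destruction, were higher than each line too, by 1.56 ± 0.15 and 1.65 ± 0.24. Of 10 tested pathway genes 6 were higher and 2 lower (HIF1AN and CITED2). The 48 HIF target genes moved in both directions, 25 higher and 15 lower with a median of 0.33. Against PC3, in the same medium, 9 of the 48 were more than 2-fold higher and 16 lower. Against HCT116 these counts were 15 and 8, and against T47D 19 and 7. The study chose these genes for their response to hypoxia in libraries that include these lines. PKM, GPI, ANGPTL4 and DDIT4 were higher than each line besides EGLN1, while HK2 (1.97 ± 0.744 CPM, against 16.9 or more elsewhere), AK4, PFKFB4 and MIR210HG were lower than each.

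Among growth factor receptors, ERBB3 was lower than each line (3.30 ± 0.523 CPM against 25.9 or more) and ERBB4 had no count in A549. EGFR read 96.7, 137 and 198 CPM, between PC3 and HCT116. Of the 10 genes 2 were higher than the mean of the lines (EGFR and EREG) and 6 lower, although EREG was below HCT116 (182 against 1170 CPM).

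Keratins showed no single direction, with 11 of 24 tested higher and 4 lower (KRT85 passed the filter only through A549). A further 9 passed it only through the other lines, and of the 15 that passed it in A549 10 were higher and 2 lower. KRT7, a keratin of simple epithelium, read 3110, 3260 and 3340 CPM and was 2.27 times the PC3 mean. KRT81, a hair keratin, read 4600, 4770 and 4640 CPM, with 1800, 1730 and 1850 in PC3 and under 1 CPM in HCT116 and T47D. KRT81 and KRT86 are close copies, so their split is uncertain. KRT8 (4840 CPM) and KRT18 (2931 CPM) were higher than the mean and overlapped T47D in the case of KRT8. KRT19 was lower than each line at 155, 175 and 166 CPM, against a lowest other library of 529 CPM. KRT7, KRT8 and KRT18 were thus abundant in the libraries in which the epithelial junction genes were low.

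Aldehyde dehydrogenases were led by ALDH1A1, a retinaldehyde enzyme often used to mark stem-like cells. It read 8390, 6830 and 7100 CPM in A549 (chromosome 9, 75515587 to 75695358, GRCh37), with 2 counts in all in the other 9 libraries, both in T47D. Of 17 tested, 8 were higher and 4 lower, and ALDH3A1, ALDH3A2, ALDH2 and ALDH3B1 were the others higher than each line. ALDH1A3 was lower than in PC3 (28.7 against 1830 CPM). ALDH1A1 passed the filter only through A549. Of 34 tested HOX genes, HOXD1, HOXD10 (1.01 CPM) and HOXD11 (0.905 CPM) did so too. Of the other 31, 16 were higher than the mean, 7 lower, and 1 (3.23%) higher than each line. The summed HOX level was lowest in A549, at 206 ± 16.8 CPM, against 447 in HCT116, 350 in PC3 and 377 in T47D. Mucins summed to 10.6 ± 2.81 CPM in A549, against 3.39 in HCT116, 31.1 in PC3 and 228 in T47D, where MUC1 held 226. MUC13 and MUC12 passed only through A549, and of the other 6 tested none was higher, with MUC1 and MUC20 lower than the mean. The MUC20 call was lost without A549 replicate 1 or 3. Of the 4 mucins that passed the filter in A549, 1 was lower.

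Marker lists of the other tissues were compared in the same way. The summed level of the 14 colon genes was highest in A549, at 99.3, 124 and 135 CPM, against 42.4 ± 3.59 in HCT116, 62.9 ± 9.99 in PC3 and 20.7 ± 2.97 in T47D (SD, n = 3). Most of it was EPHB2, an ephrin receptor, at 97.1 CPM, while CDX1, GPA33, LGR5 and PHGR1 had no count in A549. The luminal breast sum was highest in T47D (5660 CPM against 98.6 in A549) and the prostate sum in PC3 (153 against 112 CPM). Of 8 tested colon genes 3 were higher and 1 lower, of 8 prostate genes 4 were higher and 2 lower, and of 11 luminal breast genes 2 were higher and 3 lower. These counts were not stable. The colon count higher was 5 without A549 replicate 3, T47D replicate 1 or 3, or any HCT116 or PC3 library. The luminal breast count higher was 1 without A549 replicate 1 or HCT116 replicate 1 or 3, and the count lower was 7 under DESeq2 and 8 without HCT116 in the mean. CDH17, an intestinal cadherin, was higher than each line (15.2 ± 4.63 CPM, with 9 counts in all in the other 9 libraries, 8 of them in HCT116), and so was TP63 of the airway list at 3.90 ± 0.778 CPM. Of the 8 airway genes tested 4 were higher and 1 lower, of 4 leukocyte genes 3 were higher and none lower, of 2 endothelial genes none was higher and 1 lower, and of 4 fibroblast genes 3 were higher and 1 lower. The endothelial count higher was 1 without A549 replicate 3 or any library of the other lines, and the fibroblast count lower was 0 without A549 replicate 1. The genes of these lists that passed the filter only through A549 were CDH17, ANKRD30A, CD14, ITGAM, COL3A1 and PDGFRA. Of the 5 prostate genes that passed it in A549 1 was lower, and both endothelial genes passed it only through the other lines. The leukocyte genes higher than each line were CD14 and ITGAM, at 2.71 and 2.76 CPM.

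**Figure D4:**
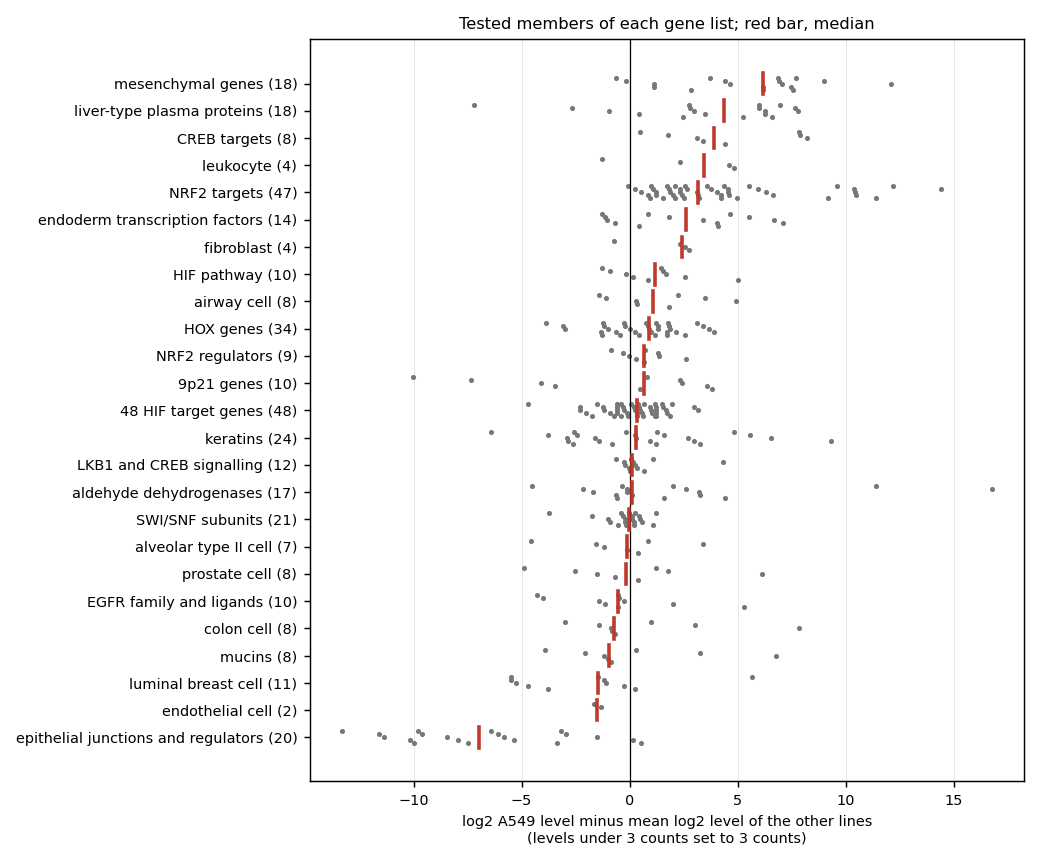
The log2 level in A549 minus the mean log2 level of the other lines, with levels under 3 counts set at 3 counts, for each tested gene (grey points) of the lists shown, with the number tested in brackets and the median as a red bar. Mesenchymal genes (6.16) and epithelial genes (-6.96) are the extremes of the medians, and the 47 NRF2 targets have a median of 3.17. Genes that passed the filter only through A549, or only through the other lines, are drawn too. Against PC3 alone the fitted mesenchymal median is 1.92. Among the 10 epithelial genes that passed the filter in A549 the fitted median is -3.28.

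A rule that ignored function named the 15 genes with the largest fitted log2 difference in each direction, among genes called against each line, with no overlap between A549 and the other libraries and a mean of at least 10 CPM in A549 (or, for lower genes, in every other line). Of 688 such higher genes, the first 15 were ALDH1A1, HAVCR1, CES1, RSPO3, PPYR1, C8orf4, AKR1C2, NR0B1, GABRA5, PPP1R14A, INA, AKR1B10, MSC, SFRP1 and SLC22A3. They were chosen for their size, so their values are a description. Where a group has no count the fitted value depends on the model, and so does the order. With levels under 3 counts set at 3 counts, ALDH1A1 (16.75) and AKR1C2 (14.37) are the largest of these 15, while HAVCR1 stands at 10.14, below RSPO3 (11.55) and CES1 (10.84) among others. HAVCR1, a kidney injury marker, averaged 76.2 ± 5.13 CPM with no count elsewhere, at least 814-fold higher than each line at the floor. RSPO3, an activator of Wnt signalling, averaged 202 ± 22.7 CPM with 3 counts in all elsewhere, and SFRP1, a secreted Wnt antagonist, 101 ± 19.9 CPM. CES1 is a carboxylesterase (124 ± 8.66 CPM), GABRA5 a subunit of a neuronal GABA receptor (75.3 ± 1.18 CPM) and INA a neuronal intermediate filament (75.9 ± 12.3 CPM).

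Of 265 such lower genes, the first 15 were CDKN2A, GRHL2, MAL2, JPH1, PRMT6, MACC1, ESRP1, C1orf172, RAB25, ZNF320, ST14, EPHA1, CBLC, MPZL2 and CDH3. Of these, 6 belong to the epithelial list (GRHL2, MAL2, ESRP1, RAB25, ST14 and CDH3). With levels under 3 counts set at 3 counts, MAL2 (-13.29) leads these 15 and CDKN2A stands at -10.01. PRMT6, an arginine methyltransferase (chromosome 1, 107599296 to 107610258, GRCh37), had no count in A549 and 14.0, 33.5 and 51.5 CPM in HCT116, PC3 and T47D. It was at least 242-fold lower. MACC1, a regulator of MET, was at least 190-fold lower and JPH1, a membrane tether of muscle, at least 333-fold. ST14, the protease matriptase, had 17 counts in all in A549 against 98.5 CPM in HCT116 and was 900-fold lower (95% counting interval 562 to 1550). MAL2, of apical transport, had 5 counts in all against 321 CPM in HCT116.

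Genes with at least 10 CPM in A549 and no more than 3 counts in any other library numbered 27. Those listed above apart, they include NTRK3, a neurotrophin receptor (17.5 CPM), NKX2-5, a cardiac homeobox gene (14.6 CPM), MYOCD, a smooth muscle coactivator (10.4 CPM), and ARSE, a sulfatase (50.7 CPM). These 4 were chosen after their values were seen. The reverse, no more than 3 counts in any A549 library and at least 10 CPM in every other line, held for 11 genes, all of them among the 15 lower genes named above.

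Per kilobase of transcript, the 10 most abundant genes of A549 were FTL, TMSB10, GAPDH, FTH1, ALDH1A1, TMSB4X, ACTG1, EEF1A1, RPS2 and RPS16. FTL led at 9427 CPM per kilobase, with GAPDH at 4250 and ALDH1A1 at 3550. FTL and ALDH1A1 thus stood among the cytoskeletal and translation genes in this line. FTL had 68.5 CPM and ALDH1A1 0.0136 CPM in T47D. Ferritin, ribosomal and thymosin genes have many processed copies in the genome, so their counts are uncertain.

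The share of calls differed among chromosomes, which is given as a description. Among tested genes with a mean of at least 10 CPM, 57.8% of the 652 on chromosome 2 were higher in A549 and 8.13% lower. Their median log2 difference was 0.47, and medians here have levels under 3 counts set at 3 counts. The shares over all genes given above have no such limit on level. Chromosomes 15 (median 0.49, 306 genes) and X (0.33, 302 genes) leaned the same way. Chromosomes 17 and 9 had 44.8% and 44.6% higher. On chromosome 21, 63.1% of 103 genes were lower and 12.6% higher (median -0.56), and chromosome 3 had 45.0% lower and 19.4% higher (median -0.31, 558 genes). Chromosomes 1, 4 and 6 were close to chromosome 3, with 41.2%, 40.5% and 39.9% lower. The chromosomes of all 4 lines enter these values, and DNA copy number was not analysed here. CBR1 and CBR3 both lie on chromosome 21.

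**Figure D5:**
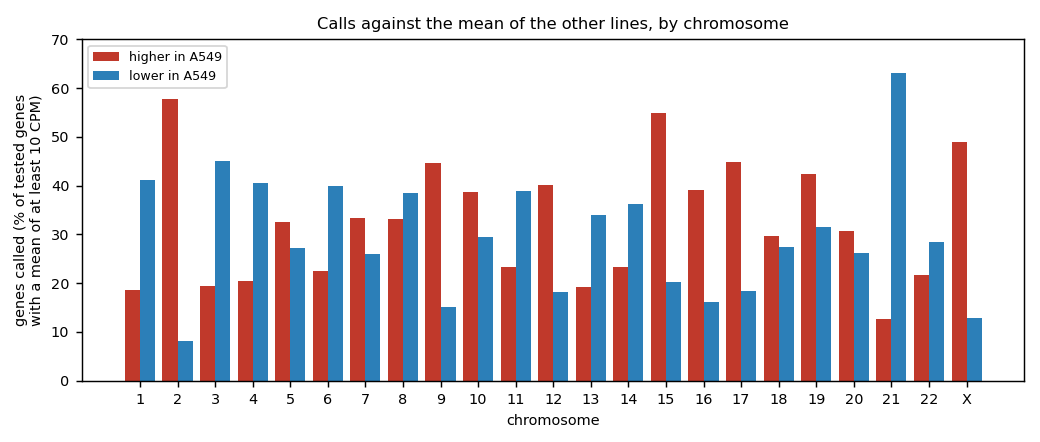
Share of tested genes with a mean of at least 10 CPM that were called higher (red) or lower (blue) in A549 than the mean of the other lines, in percent, for each chromosome. Chromosome 2 has the largest share higher (57.8%) and chromosome 21 the largest share lower (63.1%).

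The same contrast in the 12 hypoxic libraries, which the comparison had not used, gave 5489 genes higher (35.4% of 15514 tested) and 4234 lower (27.3%) than the mean of the other lines. Higher than each line were 1168 genes (7.53%) and lower than each 736 (4.74%). Of the normoxic calls against each line, 914 higher genes were called again (79.0% of the normoxic and 78.3% of the hypoxic calls) and 544 lower genes (73.0% and 73.9%), and none was called in the opposite direction. Against the mean of the lines 12 and 14 genes were. Of the 47 NRF2 targets 45 were higher in hypoxia and none lower, with 33 higher than each line. Of the 20 epithelial genes 18 were lower, 16 of them than each line, and of the 18 mesenchymal genes 17 were higher. ALDH1A1 averaged 5340 ± 233 CPM in hypoxic A549 and GPX2 366 ± 64.8 (SD, n = 3), while CDKN2A and GRHL2 had no count in any hypoxic A549 library.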

How the data were processed

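RNA of each line was poly-A selected and made into directional libraries. Per the labels and the study's methods, the authors trimmed reads with Trim Galore 0.3.3, aligned them with HISAT2 2.05 to GRCh37, removed fragments without a unique position with Picard 2.0.1, and deposited the raw count per gene from HTSeq 0.5.4p3. The strand setting is not given in the sources used here, so antisense and overlapping genes, and near-identical copies, are uncertain.

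From the deposited counts, 15616 genes that passed filterByExpr were fitted with edgeR 4.0.16 (R 4.3.3): TMM scaling, 1 group per line, 12 normoxic libraries, quasi-likelihood test, Benjamini-Hochberg adjustment over all genes tested. A549 was set against the mean of the 3 other lines and against each of them. The 12 hypoxic libraries were fitted in the same way. CPM values use the TMM-scaled library sizes. Errors of log2 differences are SE, taken as the absolute log2 difference over the square root of the quasi-likelihood F. Where a line had few or no counts, they depend on the model, as the fitted difference does. Errors of CPM are SD with n = 3. Counting intervals are 95% Poisson intervals and cover counting error only. Counts among genes that passed the filter in the other lines alone, or in A549 alone, were added after seeing the data. Scripts were tested on simulated data.

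The genes named are members of the lists, the 15 with the largest difference in each direction among genes called against each line without overlap and with a mean of at least 10 CPM, and the 10 most abundant per kilobase. The members and lists were chosen with earlier results of these data known. Of 23106 gene symbols, 19922 (86.2%) matched the annotation. Alternatives were DESeq2 1.42.0, other scalings, filters and thresholds, a replicate block, 1 fit of all 24 libraries, leaving out each library, and leaving out each other line. Some members counted in the lists, and 1 list, are not reported here by name.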

Additional observations from a re-analysis of the deposited data

Results flagged for a closer look

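The A549 difference was compared between oxygen states by an interaction term in 1 edgeR quasi-likelihood fit of all 24 libraries, and 232 of 16089 genes tested (1.44%) passed an adjusted p of 0.05. Among the 443 tested genes of the lists and the naming rule 23 did (5.19%), and they are given as the log2 A549 difference in normoxia minus that in hypoxia. The differences that were lower in normoxia were LOX (-3.34), NR5A2 (-2.52), MIR210HG (-2.18), EGLN3 (-2.16), HK2 (-2.01), MUC1 (-1.56), LPCAT1 (-1.35), AK4 (-1.04) and SLC16A3 (-0.79). Those that were higher in normoxia were SMARCA4 (1.89), DDIT4 (1.57), KRT15 (1.40), CDKN1A (1.19), EGLN1 (1.17), MARVELD3 (1.15), GRHL1 (1.11), BHLHE40 (1.10), ENO1 (1.05), MTAP (1.02), HIF1A (1.0), ETV5 (0.95), PLK2 (0.92) and PFKFB4 (0.83).

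Of the 23 genes 11 were among the 57 tested genes of the HIF pathway and the HIF targets (19.3%), and 12 among the other 386 (3.11%). The HIF targets were chosen by the study for their response to hypoxia, so their share is not independent evidence. LOX, a collagen crosslinking enzyme, had a log2 difference of -0.16 in normoxia and 3.24 in hypoxia. HK2, hexokinase, was lower in A549 in both states, by -4.68 and -2.61. SMARCA4 was lower in both states too, by -3.75 in normoxia and -5.59 in hypoxia, and MTAP by -3.44 and -4.40. Each difference holds the response of all 4 lines to oxygen, and which line moved was not tested.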

How the results depend on the processing

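The counts of genes higher and lower than the mean of the other lines, and than each line, stayed within 1.5 times the reported ones under DESeq2, other scalings and filters, the fit of all 24 libraries and an adjusted p of 0.01. With a fold over 2 for the mean and 4 for each line, they were 3184 higher, 2184 lower, 632 higher than each and 441 lower than each. Against PC3 alone 3184 genes were higher and 2871 lower. Leaving out 1 library at a time gave 4813 to 5483 higher, 3551 to 4333 lower, 1126 to 1203 higher than each and 697 to 769 lower than each. Total-count scaling moved the median of all genes by -0.113, with 4640 higher and 4767 lower. Across these settings 41 to 46 NRF2 targets and 14 to 16 mesenchymal genes were higher, and 18 to 19 epithelial genes lower. Small lists moved more: 1 to 2 alveolar type II genes, 3 to 5 colon genes and 1 to 4 luminal breast genes were higher, and 1 to 8 luminal breast genes, 3 to 7 keratins, 1 to 4 endoderm factors and 3 to 8 SWI/SNF subunits lower. Of the genes of LKB1 and CREB signalling 2 to 6 were higher, and of the fibroblast and leukocyte genes 0 to 3 and 1 to 3. Higher too were 2 to 7 SWI/SNF subunits, 3 to 7 NRF2 regulators and 2 to 4 thioredoxin genes. The larger list of 48 HIF target genes also moved, with 15 to 27 higher and 8 to 18 lower. Leaving a line out of the mean turned 7 printed genes: without HCT116, AGR2 (-1.82), CBR3 (-0.73) and JUP (-0.60), without PC3, MAFF (0.96) and TWIST1 (0.48), and without T47D, FOXA1 (0.42) and SNAI2 (-0.44). Over all 18 pairs of same-numbered libraries of different lines, deviations from the line means correlated from -0.556 to 0.526, with 7 over 0.1, so the numbers were not taken to pair the samples. Between A549 and T47D the 3 values were 0.109, 0.229 and 0.369, and between A549 and PC3 they were -0.00997, -0.326 and -0.444. The replicate block gave 5142 higher, 4040 lower, 1146 higher than each and 736 lower than each. In hypoxia 1555 to 1974 genes differed from each line under alternatives chosen after seeing the data, against 1904 reported. Depth limits genes near 3 counts per library.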
